A study of Mus musculus with 12 samples.

Results

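Haemoglobin genes and other red blood cell genes, 9 in all, were followed in the lungs of mice carrying mutant Iars1 and of wild-type mice. The members were picked by symbol, with GENCODE M21 names, and all 9 were found among the 59136 entries of the count table. They were the adult haemoglobin genes Hba-a1, Hba-a2, Hbb-bs and Hbb-bt, the haem synthesis genes Alas2 and Fech, the membrane genes Slc4a1 and Epb42, and the metabolic gene Bpgm. All 9 were among the 19004 genes that passed the filter on low counts. Their transcripts were measured by messenger RNA sequencing in 12 lung libraries from day 28.

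The WT group held 6 libraries (replicates 1, 3, 4, 5, 6 and 7) and the Mut group held 6 (replicates 1, 2, 3, 4, 5 and 7). The design text gives the mutant alleles of Iars1, the cytosolic isoleucyl-tRNA synthetase gene, as Tyr148Cys and Arg444*, a residue change and a premature stop, while the genotype label calls the same samples a knockdown. The labels name lung tissue and also primary lung cells, and give neither strain nor sex. They do not say whether blood was flushed from the organ, or that each library came from a separate mouse, so p-values measure the spread between these libraries, part of which may be technical. Libraries held 17118716 to 24014890 counted reads. Lung markers were at high levels in both groups (Sftpc of alveolar type 2 cells at 9030 to 19520 CPM, counts scaled to library size), and Xist lay between 1.44 and 3.0 CPM in every library. Iars1, annotated as Iars, was not lower in Mut (log2 fold change 0.29, adjusted p = 0.189, edgeR quasi-likelihood test).

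A haemoglobin molecule holds a pair of alpha chains and a pair of beta chains, each with 1 haem group, and red blood cells are packed with it to carry oxygen. Globin messages are made at a very high rate in the bone marrow and spleen by erythroblasts, and they persist in reticulocytes, the youngest circulating red cells, which have lost the nucleus. The lung receives the whole output of the right heart, so its capillaries hold many red cells at any moment. In a whole-tissue library, fewer red cells and less RNA per red cell cannot be told apart.

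Both adult alpha genes lie on chromosome 11 and both adult beta genes on chromosome 7, in build GRCm38. Hba-a1 spans 32283511 to 32284465 and Hba-a2 spans 32296489 to 32297298 on the plus strand, with 12023 bases between them. Hbb-bt spans 103812524 to 103813996 and Hbb-bs spans 103826534 to 103828096 on the minus strand, with 12537 bases between them. The coding sequences of Hba-a1 and Hba-a2 have the same length, 426 bases, and differ at 1 position. Those of Hbb-bs and Hbb-bt, 441 bases long, also differ at 1 position. Of the 50-base stretches of the Hba-a2 transcript, 86.9% also occur in Hba-a1, and of those of the Hbb-bt transcript, 58.3% occur in Hbb-bs. Reads from such stretches cannot be assigned to 1 copy, and how they were counted is not given in the sources used here, so the split within each pair is uncertain while the sum of a pair is less so.

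Promoter sequence is shown for the 4 globin genes and Alas2, the members with the largest fitted decreases, so that the copies can be compared; the choice used those decreases. The RefSeq table for GRCm38.p6 held promoters for 7 of the 9 members. Each line gives the 150 bases before the RefSeq start, 5′ to 3′. The gene spans above are those of GENCODE, which begin further upstream, so each window lies wholly (Hba-a1, Hbb-bs) or in part (Hba-a2, Hbb-bt, Alas2) inside its GENCODE span. Capitals mark AGATAA or TGATAA (the motif bound by GATA factors), CACCC (bound by KLF factors), CCAAT, and TATAA of the TATA box, on either strand. The windows are chr11:32283522-32283671 and chr11:32296342-32296491 on the plus strand for the alpha genes, chr7:103827929-103828078 and chr7:103813924-103814073 on the minus strand for Hbb-bs and Hbb-bt, and chrX:150547267-150547416 on the plus strand for Alas2.
Hba-a1: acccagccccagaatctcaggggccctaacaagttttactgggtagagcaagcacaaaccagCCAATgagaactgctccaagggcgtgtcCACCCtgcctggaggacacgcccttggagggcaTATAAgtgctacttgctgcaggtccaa
Hba-a2: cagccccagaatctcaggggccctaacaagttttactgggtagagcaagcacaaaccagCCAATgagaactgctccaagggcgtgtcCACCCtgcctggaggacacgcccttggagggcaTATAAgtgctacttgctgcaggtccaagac
Hbb-bs: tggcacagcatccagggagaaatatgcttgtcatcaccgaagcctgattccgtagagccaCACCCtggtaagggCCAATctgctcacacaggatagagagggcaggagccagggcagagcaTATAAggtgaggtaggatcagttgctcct
Hbb-bt: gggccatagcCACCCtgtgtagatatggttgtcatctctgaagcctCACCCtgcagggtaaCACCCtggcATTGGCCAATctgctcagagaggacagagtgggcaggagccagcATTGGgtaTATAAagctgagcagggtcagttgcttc
Alas2: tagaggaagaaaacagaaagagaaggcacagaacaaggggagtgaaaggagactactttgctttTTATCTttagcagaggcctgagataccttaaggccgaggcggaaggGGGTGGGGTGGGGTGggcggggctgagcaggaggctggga

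Where they align, the alpha promoters are identical at 147 of 147 bases, and the beta promoters at 115 of 143. Each of the 4 globin windows holds the KLF motif together with the CCAAT motif, and each also has a TATA box. Alas2 holds a GATA motif and 3 adjacent copies of CACCC on the opposite strand within the 150 bases, and neither of the other motifs there. CACCC was the only motif in all 5 printed windows. Over the full 250 bases before the start, a GATA motif also occurs in Hba-a1, Hba-a2 and Hbb-bs, but not in Hbb-bt. Of the members not printed, Epb42 holds a GATA motif and TATAA in its 250 bases and Bpgm holds CCAAT. Among 27025 mouse promoters of that length, 17% hold a GATA motif, 51.3% CACCC, 34.5% CCAAT and 23.5% TATAA, and 0.759% hold all 4. These matches describe letters in a window and do not show binding.

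Haemoglobin transcripts were several-fold lower in the Mut lungs, and every Mut library lay below every WT library for each of the 4 adult genes. Hbb-bs, an adult beta chain gene, read 453, 1716, 2278, 1287, 898 and 702 CPM in WT replicates 1, 3, 4, 5, 6 and 7. It read 186, 68.8, 340, 396, 211 and 451 CPM in Mut replicates 1, 2, 3, 4, 5 and 7. The groups did not overlap, although the highest Mut library (replicate 7, 451 CPM) nearly met the lowest WT library (replicate 1, 453 CPM). Hbb-bs had a Mut-to-WT log2 ratio of −2.15 (SE 0.47, 95% confidence interval −3.17 to −1.12, adjusted p = 0.0165, edgeR quasi-likelihood test), a 4.44-fold lower level.

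Hba-a1, an adult alpha chain gene, ran from 325 CPM (replicate 1) through a median of 811 to 2103 CPM (replicate 4) in WT. In Mut it ran from 50.9 CPM (replicate 2) through a median of 155 to 265 CPM (replicate 4). The fitted level was 5.83-fold lower (log2 fold change −2.54, 95% confidence interval −3.57 to −1.51, adjusted p = 0.00790, edgeR). Its copy Hba-a2 ran from 54.3 through 123 to 566 CPM in WT and from 8.99 through 27.4 to 39.5 CPM in Mut, with a log2 ratio of Mut to WT of −2.79 (95% confidence interval −4.14 to −1.45, adjusted p = 0.0177). The second beta gene, Hbb-bt, ran from 114 through 245 to 818 CPM in WT and from 15.4 through 50.7 to 95.02 CPM in Mut (log2 fold change −2.57, 95% confidence interval −3.74 to −1.39, adjusted p = 0.0144). WT replicate 1 was the lowest and WT replicate 4 the highest library of its group for all 4 globin genes, and Mut replicate 2 was the lowest of its group for all 4. Ordered by fitted change among the 19004 genes, Hba-a2 had the lowest value of all, Hbb-bt the third lowest, Hba-a1 the fourth and Hbb-bs the eighth.

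Together the 4 globin genes took 0.270% ± 0.171 (SD, n = 6) of all counted reads in WT and 0.0503% ± 0.0245 (SD, n = 6) in Mut. Single WT libraries ranged from 0.0970% (replicate 1, 95% exact binomial interval 0.0957% to 0.0984%) to 0.575% (replicate 4, 0.572% to 0.579%). Mut libraries ranged from 0.0139% (replicate 2, 0.0134% to 0.0145%) to 0.0754% (replicate 4, 0.0742% to 0.0766%). These intervals cover counting error only, and they are narrow beside the spread between libraries, which reached 5.93-fold within WT and 5.42-fold within Mut.

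**Figure D1:**
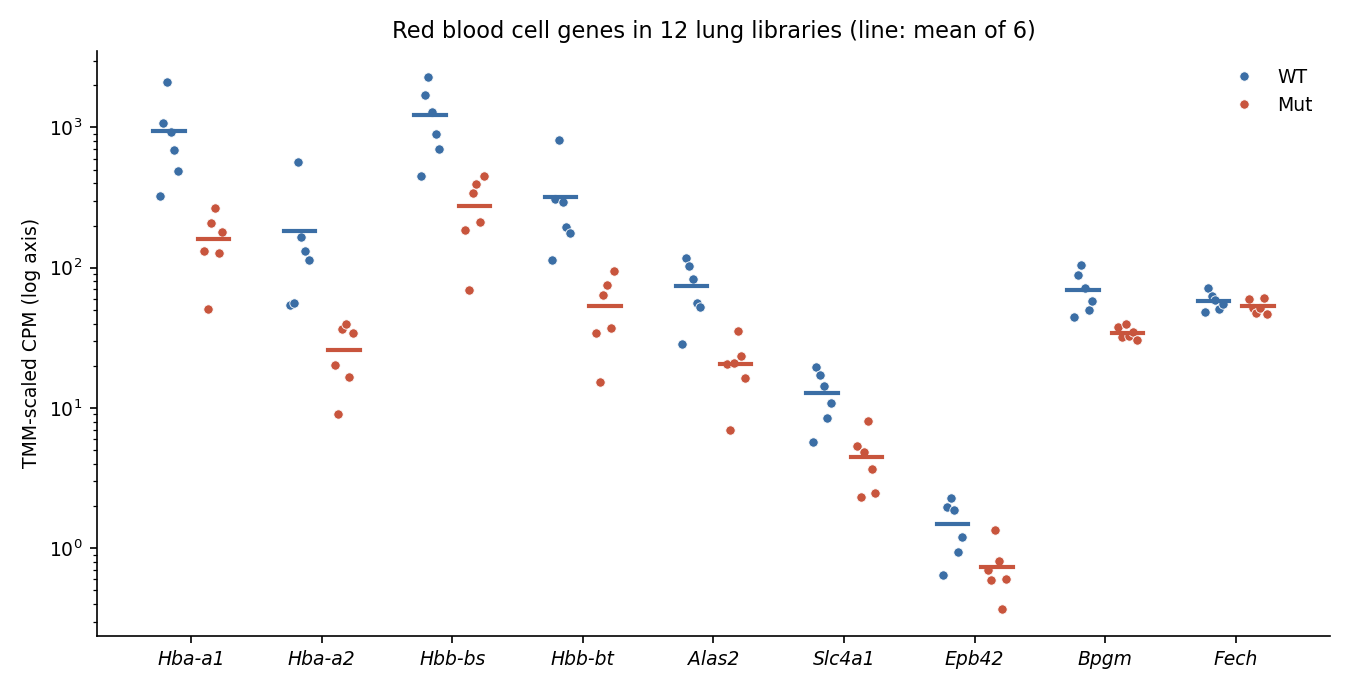
CPM (log axis) of the 9 red blood cell genes in each of 6 WT (blue) and 6 Mut (red) libraries, with the group mean as a line. Groups do not overlap for the 4 haemoglobin genes and Bpgm, overlap at 1 library per group for Alas2 and Slc4a1, and overlap widely for Fech.

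Of the 5 other members, Alas2, Slc4a1 and Bpgm fell, and Epb42 and Fech did not pass the test. Alas2, the erythroid form of the first enzyme of haem synthesis (chromosome X from 150547375 to 150570638), ran from 28.5 through 69.9 to 118 CPM in WT and from 6.96 through 20.8 to 35.4 CPM in Mut. All but 1 of the Mut libraries lay below every WT library. Its log2 fold change was −1.84 (SE 0.38, 95% confidence interval −2.66 to −1.01, adjusted p = 0.0124, edgeR). Alas2 overlaps the gene Apex2 on the opposite strand over 311 of its 2403 exon bases, and Apex2 itself had a Mut-to-WT log2 ratio of 0.04 (adjusted p = 0.875).

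Slc4a1, which encodes band 3, the anion exchanger of the red cell membrane (chromosome 11 from 102348824 to 102366203), ran from 5.71 through 12.5 to 19.6 CPM in WT and from 2.30 through 4.25 to 8.05 CPM in Mut. It fell by 1.52 on the log2 scale (SE 0.33, adjusted p = 0.0117, edgeR), a call that ended without the filter on low counts (adjusted p = 0.0623). Epb42, whose product protein 4.2 ties band 3 to the membrane skeleton (chromosome 2 from 121017891 to 121037072), was rare, with 0.645 to 2.29 CPM in WT and 0.368 to 1.35 CPM in Mut. Its log2 fold change of −1.01 (95% confidence interval −1.73 to −0.29) missed the threshold of 0.05 (adjusted p = 0.0682, edgeR).

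Bpgm makes 2,3-bisphosphoglycerate, which lowers the oxygen affinity of haemoglobin (chromosome 6 from 34476207 to 34505613). It ran from 44.6 through 64.7 to 105 CPM in WT and from 30.4 through 33.7 to 39.4 CPM in Mut, without overlap. The log2 fold change was −1.01 (SE 0.18, 95% confidence interval −1.39 to −0.63), and the adjusted p of 0.00403 was the smallest of the 9 members (edgeR). Fech, the last enzyme of haem synthesis, which inserts iron in all cells with mitochondria (chromosome 18 from 64452914 to 64490251), ran from 48.3 through 57.1 to 71.7 CPM in WT and from 46.8 through 51.5 to 61.2 CPM in Mut. Its log2 fold change of −0.13 (95% confidence interval −0.35 to 0.09) did not pass (adjusted p = 0.432, edgeR).

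In all, 7 of the 9 members were called lower and 0 higher, where 5.31% of all tested genes were called lower and 4.57% higher (9.89% in either direction). Those shares are 1010 lower and 869 higher genes, a split that became 1513 and 518 with library totals alone and 1242 and 648 with upper-quartile scaling, with 7 members called lower in both. Every Mut library lay below every WT library in 5 of the 9, against 2.39% of tested genes. The median log2 fold change was −1.84 over the members and 0.01 over all tested genes. The members were chosen with earlier results of these data known and largely come from 1 cell type, so the count is a description.

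**Figure D2:**
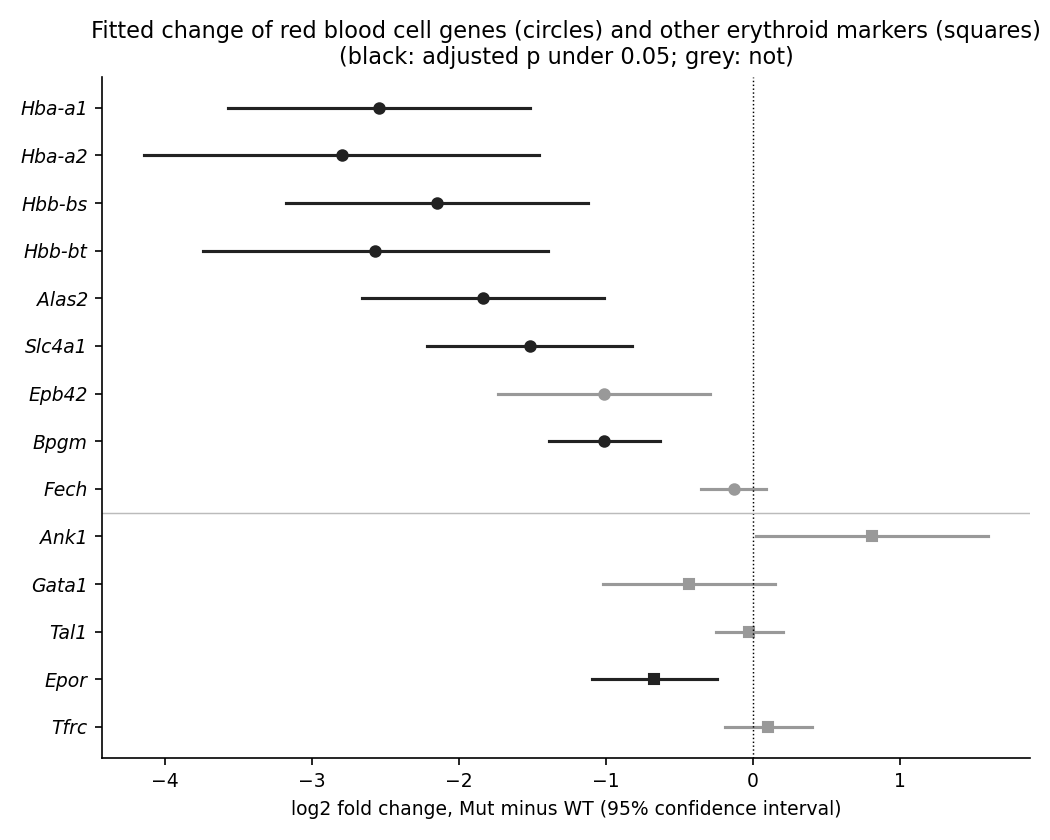
Fitted log2 fold change, Mut minus WT, with 95% confidence intervals for the 9 members (circles) and 5 other erythroid markers (squares); black marks an adjusted p under 0.05. The globin genes lie between −2.79 and −2.15, and the intervals of Fech, Gata1, Tal1 and Tfrc cross 0.

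Per length, on the deposited FPKM scale (reads scaled to gene length and library total), the beta gene Hbb-bs was the most abundant member in both groups. Its level was 1617 ± 893 FPKM (SD, n = 6) in WT and 350 ± 182 FPKM in Mut. Hba-a1 had 1169 ± 778 and 193 ± 88.8 FPKM, and lay below Hbb-bs in every library. Below them came Hbb-bt with 458 ± 361 and 74.3 ± 40.8 FPKM, and Hba-a2 with 274 ± 288 and 38.2 ± 18.1 FPKM. Alas2 followed in WT with 31.1 ± 14.3 FPKM, and in Mut its mean of 8.37 ± 3.77 FPKM was below those of Fech and Bpgm. In WT the levels of Fech (20.4 ± 3.13 FPKM) and Bpgm (19.7 ± 6.61 FPKM) did not differ beyond their spread. In Mut, Fech (17.8 ± 2.18 FPKM) stood above Bpgm (9.39 ± 1.02 FPKM). Slc4a1 (2.64 ± 1.11 and 0.887 ± 0.427 FPKM) and Epb42 (0.279 ± 0.121 and 0.133 ± 0.0602 FPKM) were lowest.

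Ratios between members within a library, which no library scaling can alter, asked whether the members changed by the same factor. They were tested together with 4 comparisons to other blood cells, 13 in all, by exact two-sided permutation over every split into 6 and 6 libraries. The ratio of alpha to beta globin reads had a mean of −0.52 ± 0.20 (SD, log2, n = 6) in WT and −0.75 ± 0.31 in Mut, a difference that did not pass (−0.23, adjusted p = 0.177). Hba-a2 relative to Hba-a1 differed by −0.01 (log2, adjusted p = 0.985, exact permutation test). Hbb-bt relative to Hbb-bs was lower in Mut by 0.31 on the log2 scale, which passed before but not after adjustment (p = 0.0433, adjusted p = 0.0688, exact permutation test).

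Alas2 and Slc4a1 relative to Hbb-bs had differences of 0.34 and 0.66 (log2) that did not pass (adjusted p = 0.272 and 0.174, exact permutation test). Relative to Hbb-bs, Fech was higher in Mut by 2.06 (log2), Bpgm by 1.23 and Epb42 by 1.22, each with an adjusted p of 0.0281 (exact permutation test). Mut libraries lay above every WT library in 5 of 6 for Fech and Epb42 and in 4 of 6 for Bpgm. The adjusted p of Bpgm and Epb42 rose above the threshold when WT replicate 3, 4, 5 or 6 was left out (up to 0.0750). Fech, Bpgm and Epb42 did not themselves rise (fitted log2 fold changes −0.13, −1.01 and −1.01). Their higher ratios reflect the larger fall of Hbb-bs already given (−2.15), and are not separate evidence of a change. Alas2 relative to Alas1, the form of the same enzyme used in all tissues, was lower in Mut by a log2 difference of −2.03 (adjusted p = 0.0281, exact permutation test, 5 of 6 Mut libraries below every WT library).

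Single libraries stood apart in these ratios. In WT replicate 3, Hba-a2 had 0.0520 reads for each read of Hba-a1, while the other WT libraries had 0.167 to 0.269 and the Mut libraries 0.130 to 0.191. In WT replicate 4, Hbb-bt had 0.359 reads per Hbb-bs read, while the other WT libraries had 0.181 to 0.252 and the Mut libraries 0.177 to 0.224. In Mut replicate 7 there were 0.392 alpha reads per beta read, against 0.581 to 0.711 in the other Mut libraries.

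**Figure D3:**
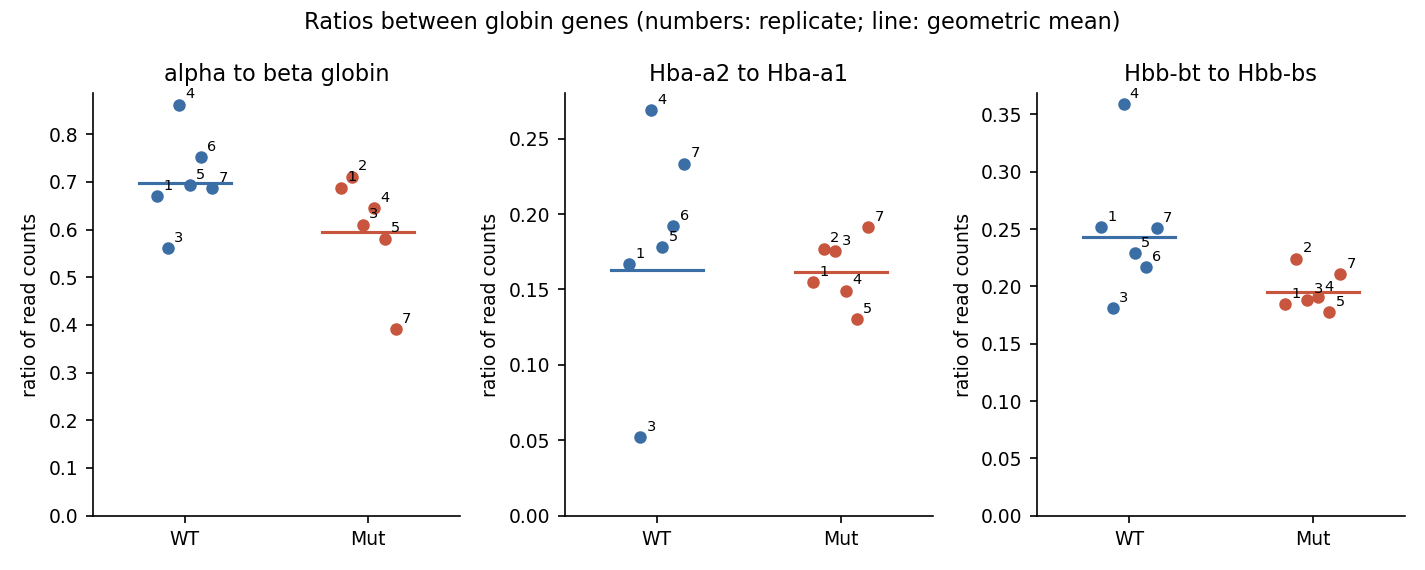
Ratios of read counts between globin genes in each library (axes start at 0; numbers are replicates; lines are geometric means). WT replicate 3 is lowest for Hba-a2 to Hba-a1 (0.0520), WT replicate 4 highest for Hbb-bt to Hbb-bs (0.359) and Mut replicate 7 lowest for alpha to beta (0.392).

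Spread between libraries of the same group differed among the members. The SD of log2 CPM in WT was 0.86 to 1.24 for the 4 globin genes, 0.75 for Alas2, 0.67 for Slc4a1 and 0.70 for Epb42. These values stood at or above the 94.9th percentile of tested genes. Bpgm had an SD of 0.48 in WT and 0.15 in Mut (86.9th and 21.0th percentile), and its highest library was 2.36 times its lowest in WT and 1.30 times in Mut. Fech had an SD of 0.21 in WT and 0.16 in Mut. WT replicate 1 was the lowest WT library for all 9 members, and WT replicate 3 or 4 was the highest.

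Within the 6 WT libraries 6 of the 8 other members were correlated with Hbb-bs by Pearson r, and Hba-a2 and Fech did not pass. By Spearman rho only Hba-a1 and Hbb-bt passed after adjustment. How many of all tested genes reach such r with Hbb-bs in WT was not computed, so the count is a description. Relations of Hbb-bs with the other 8 members and with 4 lists of blood cell genes were computed separately in each group, 24 in all, on log2 CPM by exact permutation over pairings. In WT, Hbb-bs and Hba-a1 had Pearson r = 0.983 (adjusted p = 0.0333) and Spearman rho = 1.0 (adjusted p = 0.0222), with r = 0.982 without the 2 libraries farthest from the median of Hbb-bs. Bpgm had r = 0.951 and rho = 0.943 in WT (adjusted p = 0.0333 and 0.0667, exact permutation test), and r = 0.878 without those 2 libraries. Alas2, Slc4a1, Epb42 and Hbb-bt had r between 0.924 and 0.959 in WT, each with an adjusted p of 0.0333 (exact permutation test), with rho between 0.886 and 1.0 (adjusted p between 0.0222 and 0.1) and r between 0.820 and 0.980 without those 2 libraries. Fech had r = 0.847 and rho = 0.886 in WT (adjusted p = 0.0818 and 0.1, exact permutation test), with r = 0.839 without those 2 libraries. Hba-a2 had r = 0.610 and rho = 0.657 in WT (adjusted p = 0.346 and 0.323, exact permutation test), and r = −0.523 without those 2 libraries.

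In the 6 Mut libraries the 3 other globin genes were correlated with Hbb-bs by Pearson r. Hbb-bs with Hbb-bt had r = 0.992 and rho = 1.0 (adjusted p = 0.0333 and 0.0222, exact permutation test), and r = 0.999 without the 2 farthest libraries. Hba-a1 and Hba-a2 had r = 0.955 and 0.963 (adjusted p = 0.0333 and 0.0370, exact permutation test) and both had rho = 0.771 (adjusted p = 0.206). Without the 2 farthest libraries r was 0.981 and 0.939. The other 5 members did not pass in Mut. Among them Alas2 had r = 0.770 and rho = 0.371 (adjusted p = 0.192 and 0.663, exact permutation test), and Bpgm had r = 0.00866 and rho = −0.257 (adjusted p = 1.0 and 0.790), with r = 0.658 and −0.309 without the 2 farthest libraries. Whether a relation differed between WT and Mut was not tested. Hbb-bs and Hbb-bt share long stretches of sequence, and how shared reads were counted is not given. Such reads could link the counts of these copies in either group.

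**Figure D4:**
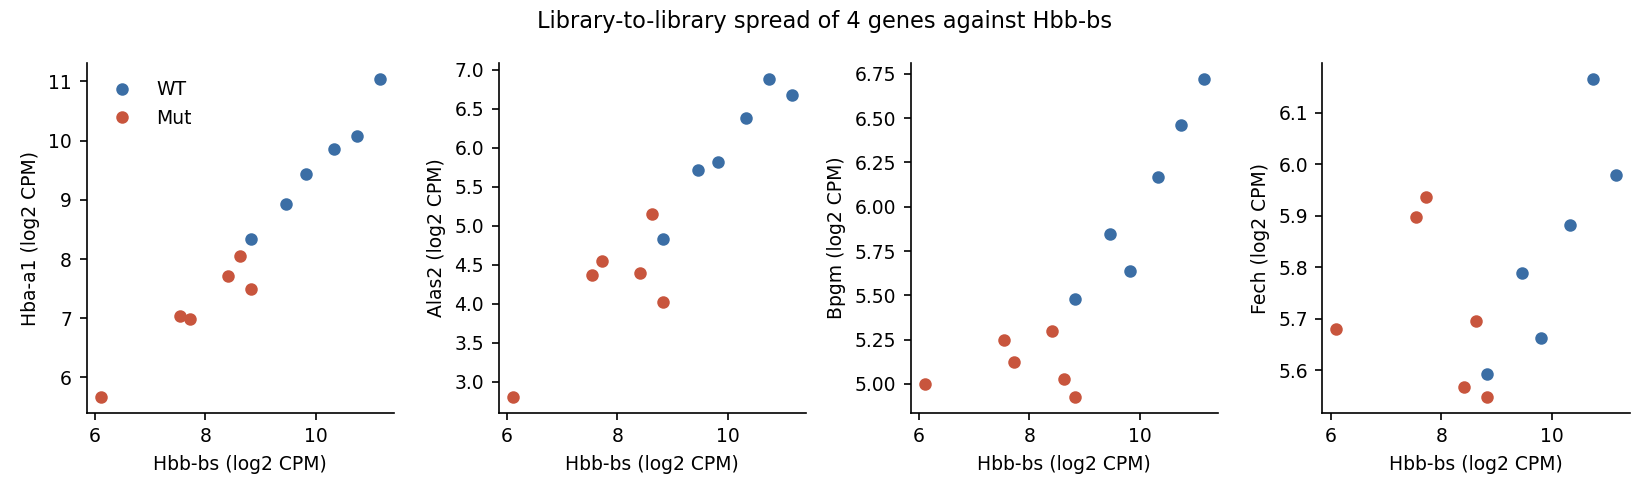
Log2 CPM of Hba-a1, Alas2, Bpgm and Fech against log2 CPM of Hbb-bs, 1 point per library (blue WT, red Mut). Hba-a1 follows Hbb-bs in both groups, while Bpgm follows it in WT (r = 0.951) and has r = 0.00866 in Mut.

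By the similarity of their library-to-library pattern, measured as Pearson r with Hbb-bs over the 12 libraries after subtracting each group mean, 10 further genes of at least 1 CPM were picked out of 16793. They include Irf5, Iglc1, Lcp1, an unannotated entry, Arhgef10l, Ncf4, Wnt7a and Itgb2, with r between 0.873 and 0.917 and rho between 0.741 and 0.944. Of these 8, Irf5 (log2 fold change −0.67), the immunoglobulin light chain gene Iglc1 (−1.44), the unannotated entry (−0.91), Ncf4 (−0.66) and the leukocyte integrin gene Itgb2 (−0.39) were called lower, and none higher. Over all tested genes, 5.31% were called lower and 4.57% higher. In all, 48 genes had r over 0.8. How many of 16793 genes would reach that by chance was not computed, so the count is a description.

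Other globin genes were nearly silent, as is usual after birth. Over all 12 libraries the embryonic alpha-like gene Hba-x had 1 read and the embryonic beta-like genes Hbb-y and Hbb-bh1 had 16 and 13 reads. The theta-globin genes Hbq1a and Hbq1b had 26 and 93 reads. None of the 8 further globin genes in the table passed the filter on low counts. The count table held no entry named Hbb-b1 or Hbb-b2.

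Among other genes of the red cell membrane and its skeleton, 1 of 16 tested fell (6.25%) and 1 rose. Over all tested genes the shares were 5.31% lower and 4.57% higher. The actin-capping gene Tmod1, also used in muscle, was called higher (0.48, adjusted p = 0.0189), and that call ended without WT replicate 5 (adjusted p = 0.0504). The ankyrin-1 gene Ank1 (0.81, adjusted p = 0.170) was not called. The median of that list was −0.06. The list holds genes at far higher mean WT levels than Slc4a1 (12.7 CPM), such as Aqp1 (781 CPM), Cd47 (388 CPM) and Add1 (326 CPM). Level alone does not show which cells a transcript came from, and the part of other cells in this list was not tested.

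The 18 tested genes of reticulocytes and the red cell cytosol had a median log2 fold change of −0.24. Of these, 4 were called lower (22.2%, against 5.31% of all tested genes) and 0 higher. They included the erythroid differentiation gene Trim10 (−1.49, adjusted p = 0.0105), the ubiquitin ligase gene Mkrn1 (−0.39, adjusted p = 0.0260) and the ubiquitin-conjugating enzyme gene Ube2l6 (−0.77, adjusted p = 0.0350, edgeR). Trim10 ran from 1.82 through 2.23 to 4.99 CPM in WT and from 0.631 through 0.863 to 1.67 CPM in Mut, without overlap. Removing WT replicate 5 or any of Mut replicates 1, 2 and 5 ended the call of Mkrn1 (highest adjusted p 0.0578). That of Ube2l6 ended on removing any of WT replicates 3 to 6 or of Mut replicates 1, 2 and 5 (highest 0.0773), and also without the filter on low counts (0.140). Bnip3l, which clears mitochondria from reticulocytes and acts in other cells too, had a Mut-to-WT log2 ratio of −0.06 (adjusted p = 0.704).

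Haem synthesis genes other than Alas2 and Fech gave 1 call, beside 5.31% of all tested genes called lower and 4.57% higher. Of 12 tested genes of that list 0 were called lower and 1 was called higher, Clpx (0.33, adjusted p = 0.0236), a mitochondrial chaperone that acts on the ALAS enzymes. The call of Clpx ended without WT replicate 6, Mut replicate 1 or Mut replicate 2 (adjusted p up to 0.0551) and with library totals alone (adjusted p = 0.0608), without the filter on low counts (0.0731) and in both FPKM fits (0.0621 and 0.0631). Slc25a38 (0.24, adjusted p = 0.0509) and Cpox (0.28, adjusted p = 0.0575, edgeR) were not called, though their unadjusted p was under 0.05. Every Mut library lay above every WT library for Slc25a38. With DESeq2, 3 genes of the list were called higher and 0 lower, and with library totals alone 0 in either direction. Alas1 had a Mut-to-WT log2 ratio of 0.18 (adjusted p = 0.283) and Urod −0.01 (adjusted p = 0.969, edgeR).

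The erythroid transcription factor list also holds the receptor gene Epor. Of 8 tested genes 3 were called lower (37.5%, against 5.31% of all tested genes) and 0 higher, with a median of −0.45. The 3 were Lmo2 (−0.61, adjusted p = 0.0111), Bcl11a (−0.81, adjusted p = 0.0246) and Epor, the erythropoietin receptor gene (−0.67, adjusted p = 0.0473, edgeR). Lmo2 is also used in vessels and B cells, and Bcl11a in B cells. B cell genes were lower in the same libraries, and none of 10 lung epithelial and endothelial genes was called. Any part of other cells in the calls of Lmo2 and Bcl11a was not tested. Epor kept its call only when WT replicate 7 or Mut replicate 3 was the library removed, and removal of any other raised its adjusted p to as much as 0.103. Removing WT replicate 3, WT replicate 5 or Mut replicate 2 ended the call of Bcl11a (highest adjusted p 0.0586). Gata1, the master regulator of erythroblasts and megakaryocytes, was at 0.898 ± 0.286 CPM in WT and 0.666 ± 0.218 CPM in Mut (adjusted p = 0.319). Klf1 had 46 reads over the 12 libraries, 19 in WT and 27 in Mut. Gfi1b had 90, 43 in WT and 47 in Mut, and neither gene was tested. Tal1 (−0.02, adjusted p = 0.909) and Zfpm1 (0.47, adjusted p = 0.129, edgeR) were not called. Of the 8 tested genes of the list, 7 had a negative log2 fold change. The transferrin receptor gene Tfrc, high in erythroblasts and present in all dividing cells, had a Mut-to-WT log2 ratio of 0.10 (adjusted p = 0.660).

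Genes that handle iron and free haem gave few calls. None of 8 tested genes of iron uptake and storage was called by edgeR, with a median of −0.000769. An unadjusted p under 0.05 was reached by 2 of them, Slc25a37 (−0.27) and Ftl1 (−0.39), named after their values were seen. Of 10 genes of haem sensing and clearance 0 were called lower and 2 higher, where 5.31% and 4.57% of all tested genes were. Cd163, the macrophage receptor for haemoglobin bound to haptoglobin, rose from 9.40 ± 2.69 to 16.0 ± 3.10 CPM (SD, n = 6; log2 fold change 0.77, adjusted p = 0.0154, edgeR). Bach1, a haem-binding repressor, had a Mut-to-WT log2 ratio of 0.32 (adjusted p = 0.0478), and it too kept its call only when WT replicate 7 or Mut replicate 3 was removed (otherwise up to 0.104). Its call also ended with RLE scaling (adjusted p = 0.0572), upper-quartile scaling (0.0708), library totals alone (0.101), limma-voom (0.0549), no filter on low counts (0.0802) and both FPKM fits (0.119). Hmox1, the haem oxygenase gene, had a Mut-to-WT log2 ratio of −0.02 (adjusted p = 0.936), and Eif2ak1, which encodes the haem-regulated kinase of translation factor eIF2, of 0.12 (adjusted p = 0.318).

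Other cells of the blood differed among themselves. Of 12 tested platelet and megakaryocyte genes none was called by edgeR (1 had an unadjusted p under 0.05, Treml1), with a median log2 fold change of −0.20 and a summed level of 51.6 to 104 CPM in WT and 49.7 to 74.7 CPM in Mut. Of 9 tested neutrophil genes none was called either (0 with an unadjusted p under 0.05), with a median of −0.20 and a summed level of 102 to 212 CPM in WT and 88.4 to 257 CPM in Mut. Of 10 B cell genes 10 were called lower (median −1.05, summed level 234 to 477 CPM in WT and 134 to 220 CPM in Mut), and of 10 T cell genes 9 were (median −0.85, 136 to 204 and 75.5 to 136 CPM). Of 10 lung epithelial and endothelial genes none was called (median 0.03). Of all tested genes, 5.31% were called lower and 4.57% higher. The part of these other cells in the red cell result was not tested.

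Measured against those lists in the same library, Hbb-bs was lower in Mut relative to platelet genes by a log2 difference of −1.96 (adjusted p = 0.0281) and relative to neutrophil genes also by −1.96 (adjusted p = 0.0281, exact permutation test). In the 6 Mut libraries 4 lay below every WT library for the platelet comparison and 2 for the neutrophil comparison. Both p-values rose to 0.0563 without WT replicate 4, 5 or 6. Relative to B cell and T cell genes the differences were −1.15 and −1.34, which did not pass after adjustment (adjusted p = 0.0603 and 0.0688, exact permutation test). Within the 6 WT libraries, Hbb-bs had r = 0.835 and rho = 0.771 with the B cell list (adjusted p = 0.0818 and 0.206, exact permutation test), with r = 0.958 without the 2 farthest libraries. Its r with the T cell, neutrophil and platelet lists was −0.07, −0.02 and 0.443, with rho of 0.200, 0.143 and 0.486 (adjusted p from 0.533 to 0.996, exact permutation test). Without the 2 farthest libraries these r were −0.673, 0.986 and 0.570. In Mut the r of Hbb-bs with the B cell, T cell, neutrophil and platelet lists was 0.228, −0.264, 0.486 and −0.383, with rho of 0.143, −0.600, 0.771 and −0.143 (adjusted p from 0.206 to 0.803, exact permutation test). Without the 2 farthest libraries these r were −0.354, −0.568, 0.478 and −0.456.

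**Figure D5:**
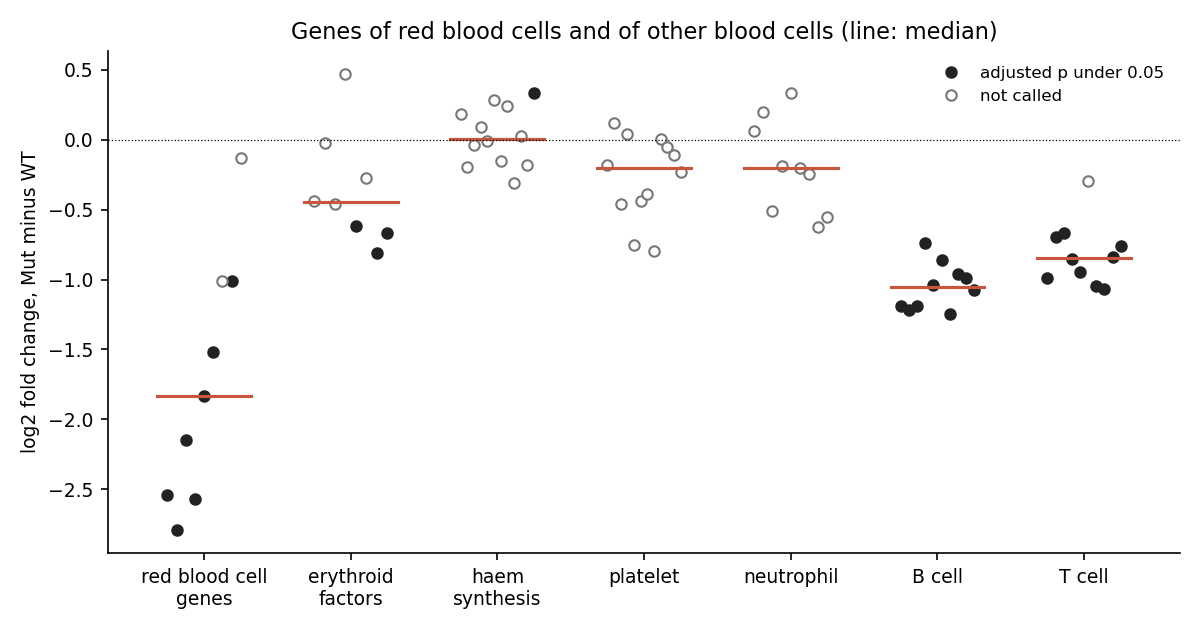
Log2 fold change, Mut minus WT, of each tested gene in 7 lists (filled: adjusted p under 0.05; open: not called; line: median). Red blood cell genes reach −2.79, the medians of B cell and T cell genes are −1.05 and −0.85, and platelet and neutrophil genes are all open points.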

How the data were processed

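The count table holds whole-number reads per gene as the authors deposited it, unscaled, as seen from its values. The FPKM table, also deposited, is the counts over library total and gene length, checked within 0.1% for 22259 genes. The submitters' processing notes name mm10 and limma without a role; aligner, counting rule and strandedness are not given in the sources used here. Names and positions came from GENCODE M21. Of 59136 entries, 4690 have no Ensembl identifier (0.585% to 0.868% of counts), 718 of them tested. Counts were fitted with edgeR 4.0.16 in R 4.3.3: filterByExpr (minimum count 10, total 15), TMM scaling (factors 1.0007 to 1.0414 in WT, 0.9677 to 0.9903 in Mut), robust quasi-likelihood test of genotype, Benjamini-Hochberg adjustment over 19004 genes, threshold 0.05. Log2 CPM used a prior count of 0.5, and count ratios added 0.5 to each count. Ratios and relations were computed in Python 3.11.15.

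Members and lists were chosen with earlier results of these data known. The genes named were the members, any gene of the red cell, haem and iron lists, up to 4 genes with the smallest p of each other list, and the 10 genes most like Hbb-bs; genes given for a count of 5 or fewer were named after their values were seen. Some genes of the lists are counted but not reported here by name. Alternatives were RLE and upper-quartile scaling, library totals, TMM without the members, other filters, DESeq2 1.42.0, limma 3.58.1 (voom, quality weights, log2(FPKM + 1) and log2(FPKM + 0.1)), a replicate block, unannotated entries removed, copies summed, and each library left out. Tested on simulated Mut and WT libraries (18696 genes), the fit made 163 calls, 12 of them false. It found 22 of the 50 simulated 1.5-fold changes and 36 of the 50 simulated 2-fold changes. For 3-fold changes it found 45 of 47, and for 4-fold changes 48 of 48. Genes were drawn independently in the simulation, without differences between libraries that many genes share. These rates may therefore not hold for the real libraries. Within-group pairs of libraries differed by 6.39 to 62.7 times the counting noise (chi-square per degree of freedom), so none was a repeated deposit.

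Replicate numbers were not used to pair libraries in the main fit.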

Additional observations from a re-analysis of the deposited data

Results flagged for a closer look

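Of 46 sets of 6 values examined, 6 held a library whose gap to its neighbour exceeded 0.625 of the whole range. For independent, normally distributed values chance gives about 1 in 20. Gene levels were examined on CPM and ratios on log2, and the sets share libraries, so that rate is only a guide. WT replicate 4 stood above the other WT libraries with 566 CPM of Hba-a2 (next 166) and 818 CPM of Hbb-bt (next 311), and below them in Alas2 relative to Hbb-bs (log2 ratio −4.48, next −3.996). WT replicate 3 stood below the rest in Hba-a2 relative to Hba-a1 (log2 ratio −4.26, next −2.58). WT replicate 1 had the lowest Hbb-bs relative to the neutrophil list (log2 difference 4.85, next 6.58). Mut replicate 7 had the lowest alpha to beta globin ratio (log2 −1.35, next −0.78). Without WT replicate 4 the log2 fold change of Hba-a2 was −2.0002 (adjusted p = 0.0218, edgeR) and that of Hbb-bt −2.02 (adjusted p = 0.0236).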

How the results depend on the processing

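The 9 members kept a negative log2 fold change in every alternative run, and Hba-a1, Hbb-bs, Hbb-bt and Alas2 kept their calls in each (the copies summed count as 1 gene per pair). The number of members called lower was 7 or 8 over the fits that each dropped 1 library, and 8 with DESeq2 and with voom quality weights. Slc4a1 also missed without a filter on low counts, and Epb42 passed in 5 of 25 alternatives. Whether replicate numbers pair the libraries was not settled. Over 5 shared numbers the correlation of deviations ran from −0.144 to 0.112. For 1 of them the Mut library of the same number was the best match. So few correlations cannot decide the question. A fit with a replicate block takes its genotype effect from these 5 numbers. WT replicate 6 and Mut replicate 2 have no partner there, so that fit has fewer libraries and degrees of freedom behind it. With the replicate block, 4 of the 9 members, 33 genes lower and 74 genes higher were called; Hba-a2 (adjusted p = 0.0763), Slc4a1 (0.0625) and Bpgm (0.0502) were lost, as were Lmo2, Bcl11a, Epor, Mkrn1, Ube2l6, Clpx, Tmod1, Bach1 and Cd163. Over all genes, the 1010 lower and 869 higher calls became 1513 and 518 with library totals, 1242 and 648 with upper-quartile scaling, and 2151 and 2201 with voom quality weights. Higher calls numbered 1312 with DESeq2, 389 with log2(FPKM + 1) and 401 with log2(FPKM + 0.1). Dropping 1 library gave 556 (WT replicate 5) to 1205 (Mut replicate 3) lower and 401 to 1163 higher calls.

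Dropping 1 library moved the log2 ratio differences over these ranges: Hba-a2 to Hba-a1 −0.34 to 0.14, Hbb-bt to Hbb-bs −0.40 to −0.20, Alas2 to Hbb-bs 0.25 to 0.57, Slc4a1 to Hbb-bs 0.47 to 0.99, Epb42 to Hbb-bs 0.90 to 1.44, and Bpgm to Hbb-bs 0.90 to 1.46. Hbb-bs relative to the B cell list ran from −1.36 to −0.86, to the T cell list from −1.59 to −1.001, to the neutrophil list from −2.33 to −1.64, and to the platelet list from −2.24 to −1.60. With 5 added to each count, Hba-a2 to Hba-a1 was 0.00238. Relations with Hbb-bs changed sign without the 2 farthest libraries: Hba-a2 in WT (−0.523), the neutrophil list in WT (0.986), Bpgm in Mut (−0.309) and the B cell list in Mut (−0.354). The cause was not tested. Low counts limit Epb42, Gata1 and the untested globin genes.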
